A study of Mus musculus with 12 samples.

Results

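The 7 mouse genes described here encode surface proteins and nuclear regulators that are widely used to mark stem and progenitor cells: Epcam, Cd24a, Prom1, Cd44, Sox9, Sox4 and Bmi1. They were chosen by symbol, not by their values, as 7 of the 48795 genes counted. All 7 symbols matched 1 Ensembl identifier each, and all 7 passed the filter on low counts that left 15270 genes for testing. The study measured RNA in prostate cells sorted as luminal of C57BL/6 mice, wild type and 6 to 8 weeks old. Cells positive for CD31 (endothelium), CD45 (leukocytes) or Ter119 (red cells) were excluded in every group, and no treatment is named for any group. The sort crossed LY6D, a small lipid-anchored surface protein that was present or absent, with 3 levels of SCA1, the surface product of Ly6a. The 6 populations are written LY6D+ or LY6D- with SCA1high, SCA1int (intermediate) or SCA1low, and each had 2 libraries, which the labels call biological replicates without saying whether each came from 1 animal or a pool. The p-values below therefore measure the spread between these libraries. Libraries were made from 10 to 20 ng of total RNA with a kit that reads the 3′ ends of polyadenylated RNA, and no molecular identifiers are named, so PCR copies may be counted more than once.

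EPCAM is an adhesion protein of the lateral membrane of epithelial cells. CD24 is a small, heavily glycosylated, lipid-anchored protein. PROM1 sits in membrane protrusions such as microvilli and was an early marker of stem-like cells in several tissues. CD44 is the main cell surface receptor for hyaluronan, the large sugar polymer of the matrix. In the prostate, antibodies to EPCAM, CD24, CD44 and PROM1 have been used to separate basal, luminal and progenitor-enriched cells. SOX9 and SOX4 bind DNA through an HMG box, and SOX9 is needed for prostate bud growth. BMI1 is a subunit of polycomb repressive complexes, which silence genes through chromatin, and the Cdkn2a locus is its best known target.

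Library totals ran from 8436185 to 20022077 counts, and 7512 to 12202 genes per library had 10 counts or more. Ly6d RNA followed the LY6D sort: it had a mean of 45.8 CPM (counts relative to the library total, scaled to a fixed sum and by TMM) or more in each LY6D+ population and 2.40 CPM or less in each LY6D- population. Ly6a RNA followed the SCA1 gates within each LY6D state, at means of 213, 50.2 and 8.45 CPM from SCA1high to SCA1low in LY6D+ and 535, 125 and 46.8 CPM in LY6D-. It did not across states, since LY6D- SCA1low replicate 2, at 68.8 CPM, was above both LY6D+ SCA1int libraries, at 44.9 and 55.5 CPM. Replicate libraries were unlike each other, with Pearson correlations of log2 CPM over the tested genes between 0.593 and 0.681, and each of the 12 libraries was most like a library of another population. The summed CPM of 7 basal epithelial markers was 2103 to 4490 in LY6D+ libraries. It was 1678 to 1792 in LY6D- SCA1int, 399 to 563 in LY6D- SCA1high and 187 to 268 in LY6D- SCA1low. The 8 secretory luminal markers summed to 1099 to 1332 CPM in LY6D+ SCA1high and 1259 to 2519 CPM in LY6D+ SCA1int. Both were below the basal sums of those libraries. They summed to 14370 to 23880 CPM in LY6D+ SCA1low, 2563 to 4620 CPM in LY6D- SCA1high and 29520 to 35240 CPM in LY6D- SCA1int. In LY6D- SCA1low libraries they summed to 51140 to 90990 CPM.

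Promoter sequence upstream of the annotated start was available for 5 of the 7 genes, and 3 windows are printed. Sox4 is shown because it was the only gene of the 7 whose difference passed the test, and Bmi1 and Cd44 because they were the most alike pair over the 12 libraries. The sequences come from RefSeq on GRCm38.p6 and end at the base before the start. The searched motifs were the CCAAT box (CCAAT or ATTGG), the GC box (GGGCGG or CCGCCC) and the TATA box (TATAAA or TTTATA), on both strands. Capitals mark their matches. The Sox4 window is chr13:28953700-28953949 on the minus strand, the Bmi1 window chr2:18676768-18677017 on the plus strand, and the Cd44 window chr2:102901666-102901915 on the minus strand.
Sox4: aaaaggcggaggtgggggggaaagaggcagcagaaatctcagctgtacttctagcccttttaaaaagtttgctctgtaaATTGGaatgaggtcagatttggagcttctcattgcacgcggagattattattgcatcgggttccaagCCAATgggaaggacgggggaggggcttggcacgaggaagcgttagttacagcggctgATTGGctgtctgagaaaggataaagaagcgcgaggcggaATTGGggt
Bmi1: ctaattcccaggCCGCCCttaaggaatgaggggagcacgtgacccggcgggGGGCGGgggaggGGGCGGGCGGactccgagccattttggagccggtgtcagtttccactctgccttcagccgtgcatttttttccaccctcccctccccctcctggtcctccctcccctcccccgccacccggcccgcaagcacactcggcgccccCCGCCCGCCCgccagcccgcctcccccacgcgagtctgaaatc
Cd44: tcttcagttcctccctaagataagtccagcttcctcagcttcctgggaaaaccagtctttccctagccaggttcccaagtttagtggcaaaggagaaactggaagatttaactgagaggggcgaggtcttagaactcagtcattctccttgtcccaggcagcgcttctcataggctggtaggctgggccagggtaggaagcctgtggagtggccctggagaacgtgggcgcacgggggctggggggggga
The Sox4 window held 4 CCAAT boxes, ending 4 to 167 bases before the RefSeq start. At least 1 was found in 33.8% of 32851 promoter windows of the same length, and 4 or more in 0.84%. The Sox4 exon of the GENCODE annotation, whose coordinates are given below, begins at 28953713, inside this window. The match 8 to 4 bases before the RefSeq start therefore lies within that exon. The Bmi1 window held 6 GC box matches, of which 2 pairs overlap, whereas 32.7% of windows held at least 1 and 0.886% held 6 or more. The Cd44 window held none of the 3 motifs, and no TATA box was found in the windows of Epcam, Prom1, Cd44, Sox4 or Bmi1, against 12.4% of all windows with one. Since the Cd44 window held none of the searched motifs, it could share none with the Bmi1 window, and this says nothing about the pair. These matches describe the letters only.

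**Figure D1:**
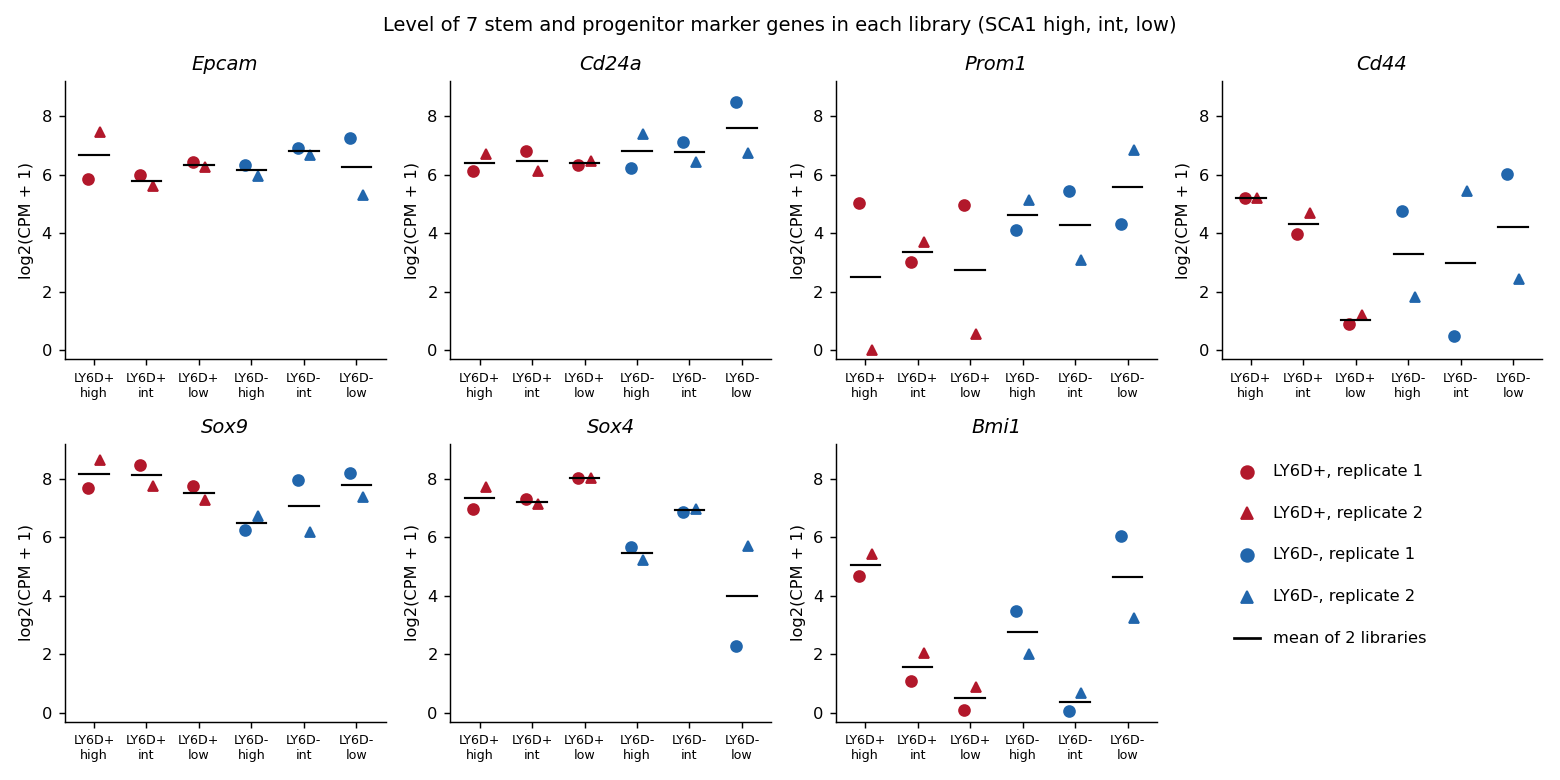
Level of each gene in every library, as log2(CPM + 1) on the vertical axis, by population on the horizontal axis, with circles for replicate 1, triangles for replicate 2, red for LY6D+, blue for LY6D- and a bar at the mean of the 2 points. All 6 LY6D+ points of Sox4 lie at or above 123 CPM, while for Prom1, Cd44 and Bmi1 the 2 points of a population are often far apart.

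Among the surface proteins, Epcam (ENSMUSG00000045394, chromosome 17, 87635979 to 87651129, plus strand of GRCm38, the assembly also called mm10) was counted in every library, with 446 to 2323 counts. Replicates 1 and 2 had 57.5 and 175 CPM in LY6D+ SCA1high, 62.6 and 47.4 CPM in LY6D+ SCA1int, and 85.4 and 75.7 CPM in LY6D+ SCA1low. In the LY6D- cells the values were 80.4 and 60.8 CPM at SCA1high, 119.6 and 101 CPM at SCA1int, and 149.8 and 38.6 CPM at SCA1low. The highest and the lowest library lay 4.53-fold apart, and both belonged to populations whose own replicates differed by more than 3-fold. The ranges of all 5 neighbouring pairs overlapped when the 6 populations were ordered by mean. At SCA1int alone, both LY6D- libraries were above both LY6D+ libraries. For this and the similar patterns of single genes below, including steps between gates without overlap, the share of all tested genes was not computed. Between LY6D+ and LY6D- cells, averaged over SCA1, Epcam gave a log2 fold change of -0.17 ± 0.52 (SE), with an adjusted p of 0.938 by the quasi-likelihood test of edgeR (Benjamini-Hochberg).

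Cd24a (ENSMUSG00000047139, chromosome 10, 43578284 to 43584265, plus strand), the mouse CD24 gene, had 872 to 3922 counts. In LY6D+ cells its values were 69.1 and 102.5 CPM at SCA1high, 112 and 69.4 CPM at SCA1int, and 79.3 and 87.8 CPM at SCA1low. In LY6D- cells they were 73.5 and 166 CPM at SCA1high, 137 and 86.3 CPM at SCA1int, and 359 and 105 CPM at SCA1low. In 6 of 6 pairs of libraries with the same SCA1 gate and replicate number the LY6D- value was the higher one, a count for which no share of all genes was computed. The LY6D+ libraries kept within 69.1 to 112 CPM and overlapped with the LY6D- range of 73.5 to 359 CPM. The averaged log2 fold change, LY6D+ over LY6D-, was -0.75 ± 0.45 (SE), with an adjusted p of 0.359 by edgeR. The highest value came from LY6D- SCA1low replicate 1, which also had the highest summed CPM of 6 erythroid markers, at 828 against 4.07 to 431 in the other libraries. The library with a sum of 431 CPM, LY6D+ SCA1high replicate 2, had 102.5 CPM of Cd24a. The library with a sum of 4.07 CPM, LY6D- SCA1int replicate 1, had 137 CPM of Cd24a. CD24 is abundant on red cell precursors. The erythroid gene Alas2 was at 0 in all 12 libraries, and the 4 globin genes made up the whole sum. The part of such RNA in the Cd24a value was not tested.

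Prom1 (ENSMUSG00000029086, chromosome 5, 43993620 to 44102032, minus strand) had 0 to 1321 counts. Its LY6D+ values were 31.6 and 0 CPM at SCA1high, 7.17 and 11.97 CPM at SCA1int, and 30.2 and 0.467 CPM at SCA1low. Its LY6D- values were 16.3 and 34.5 CPM at SCA1high, 42.8 and 7.55 CPM at SCA1int, and 19.0 and 114 CPM at SCA1low. The library with 0 counts, LY6D+ SCA1high replicate 2, allows a level of up to 0.353 CPM, taking 3 counts as the limit, and was the smallest library. The 2 LY6D+ SCA1low libraries differed 64.7-fold. Ranges overlapped between all 5 neighbours in the order of means and within all 3 SCA1 gates, and the averaged log2 fold change of -1.40 ± 1.17 (SE) had an adjusted p of 0.554 by edgeR. Both genes that overlap Prom1 in the annotation, Gm42716 and Gm16401, had 0 counts.

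Cd44 (ENSMUSG00000005087, chromosome 2, 102811141 to 102901665, minus strand) had 8 to 799 counts. In LY6D+ cells it had 35.9 CPM in both SCA1high libraries, 14.8 and 24.7 CPM at SCA1int, and 0.843 and 1.32 CPM at SCA1low. In LY6D- cells it had 26.1 and 2.499 CPM at SCA1high, 0.412 and 42.7 CPM at SCA1int, and 63.7 and 4.42 CPM at SCA1low. The LY6D+ libraries stepped down from SCA1high to SCA1low with no overlap between gates. In LY6D- cells the 2 libraries of each gate lay 10.4-fold, 104-fold and 14.4-fold apart, and no such step could be read. The log2 difference between SCA1high and SCA1low in LY6D+ cells was 5.04 ± 2.34 (SE), with an unadjusted p of 0.0404 and an adjusted p of 0.578 by edgeR. An annotated small nuclear RNA gene on the other strand, Gm23731, lies within Cd44 and had 296 counts over all libraries.

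Of the DNA-binding regulators, Sox9 (ENSMUSG00000000567, chromosome 11, 112782224 to 112787760, plus strand) had 842 to 6604 counts. It had 203 and 398 CPM in LY6D+ SCA1high, 356 and 216 CPM in LY6D+ SCA1int, and 215 and 154 CPM in LY6D+ SCA1low. In LY6D- cells it had 75.8 and 106 CPM at SCA1high, 248 and 72.3 CPM at SCA1int, and 294 and 165 CPM at SCA1low. At SCA1high both LY6D+ libraries were above both LY6D- libraries, with a log2 fold change of 1.72 ± 0.65 (SE), an unadjusted p of 0.0134 and an adjusted p of 0.405 by edgeR. At SCA1int and SCA1low the ranges overlapped. The averaged log2 fold change was 0.75 ± 0.37 (SE), with an adjusted p of 0.25. Sox9 had the smallest fitted spread between replicate libraries of the 7 genes, a biological coefficient of variation of 0.582, at the 4.90 percentile of all tested genes.

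Sox4 (ENSMUSG00000076431, chromosome 13, 28948919 to 28953713, minus strand), a gene with a single exon of 4795 bases, was higher in LY6D+ than in LY6D- cells. It had 123 and 212 CPM in LY6D+ SCA1high, 159 and 139 CPM in LY6D+ SCA1int, and 263 and 262 CPM in LY6D+ SCA1low. In LY6D- cells it had 50.4 and 36.4 CPM at SCA1high, 115 and 125 CPM at SCA1int, and 3.87 and 51.4 CPM at SCA1low. Both LY6D+ libraries were above both LY6D- libraries in 3 of 3 SCA1 gates, and the 3 LY6D+ libraries of each replicate number were above the 3 LY6D- libraries of that number. How many of all tested genes meet these patterns was not computed. Over all 12 libraries the ranges just met, because LY6D- SCA1int replicate 2, at 125.5 CPM, was above LY6D+ SCA1high replicate 1, at 123.1 CPM. By mean ± SD (n = 2) the order was LY6D+ SCA1low at 262 ± 0.679 CPM, LY6D+ SCA1high at 168 ± 63.2 CPM, LY6D+ SCA1int at 149 ± 14.6 CPM, LY6D- SCA1int at 120.2 ± 7.41 CPM, LY6D- SCA1high at 43.4 ± 9.92 CPM and LY6D- SCA1low at 27.7 ± 33.6 CPM. Of the 5 neighbours in this order, LY6D+ SCA1high and LY6D+ SCA1int overlapped, as did LY6D- SCA1high and LY6D- SCA1low. LY6D+ SCA1high also overlapped LY6D- SCA1int, which is not its neighbour.

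Averaged over SCA1, the log2 fold change of Sox4 was 1.83 ± 0.49 (SE), with an unadjusted p of 0.000819 and an adjusted p of 0.0402 by the quasi-likelihood test of edgeR, adjusted by Benjamini-Hochberg for 15270 genes. Of the 7 genes, 1 was called in this comparison, against a background of 2.48% of all tested genes, or 1.27% called as higher in LY6D+. The differences within a gate were 1.95 ± 0.85 at SCA1high, 0.31 ± 0.82 at SCA1int and 3.24 ± 0.90 at SCA1low on the log2 scale. Their adjusted p-values by edgeR were 0.405, 0.968 and 0.132, so none passed alone. In bulk RNA, fewer cells of a type and less RNA per cell cannot be told apart. The summed basal markers moved with Sox4 across LY6D: all 7 markers were counted in every library, and both measures were high in LY6D+ cells, next in LY6D- SCA1int and lowest in LY6D- SCA1high and SCA1low. Within LY6D+ cells they went apart, with Sox4 highest at SCA1low, where the basal sum was lowest of the 3 gates, at 2103 to 2861 CPM. The part of basal cell RNA in the Sox4 difference was not tested.

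The call for Sox4 was close to the threshold. The direction was the same under all 22 alternatives, whose log2 fold changes ran from 1.39 to 2.74 and whose adjusted p-values ran from 0.000137 to 0.518. The call was lost without LY6D+ SCA1high replicate 2 (adjusted p = 0.0614), LY6D- SCA1high replicate 2 (0.0642), LY6D- SCA1int replicate 1 (0.0809), LY6D- SCA1int replicate 2 (0.0817) or LY6D- SCA1low replicate 1 (0.0723). It was also lost with RLE size factors (0.0647), library size alone (0.0606), limma-trend (0.0592) and no interaction term (0.12), and was kept with DESeq2 (0.00787), which called 16.0% of its tested genes.

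**Figure D2:**
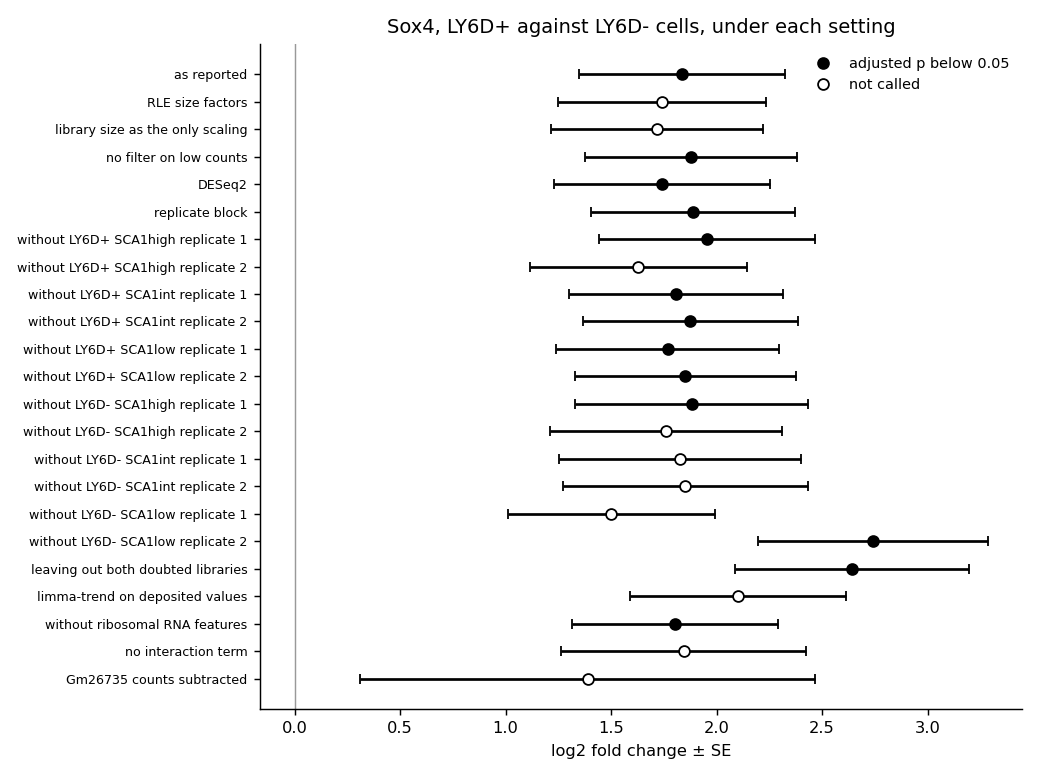
Sox4 in LY6D+ against LY6D- cells as log2 fold change with its SE on the horizontal axis, for the reported fit and each alternative, filled where the adjusted p was below 0.05 and open otherwise. All 23 estimates lie between 1.39 and 2.74, and 10 alternatives are open. Both libraries called doubted are LY6D- SCA1low replicate 2 and LY6D+ SCA1high replicate 2.

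Another gene shares part of Sox4. The long noncoding RNA gene Gm26735 (chromosome 13, 28943048 to 28951671) runs on the opposite strand, and 2616 of its 2649 exonic bases, from 28949056 to 28951671, lie over the 3′ part of the Sox4 exon. Gm26735 was counted 19065 times in all and Sox4 22741 times. In each library the Gm26735 count was below that of Sox4, at 35.6% to 99.3% of it, with a median of 84.6%. Gm26735 was itself higher in LY6D+ cells, with a log2 fold change of 2.21 ± 0.56 (SE) and an adjusted p of 0.0303 by edgeR. The library kit keeps the strand of the RNA, but whether the counting used it is not given in the sources used here, so reads of the 2 genes cannot be told apart. With the Gm26735 counts taken off those of Sox4, an alternative added after the counts were seen, the log2 fold change of Sox4 was 1.39 ± 1.08 (SE), with an adjusted p of 0.518 by edgeR. This left 15 to 904 Sox4 counts per library. Where the same reads were counted for both genes, it also took off reads of Sox4 itself. The lost call therefore cannot show which of the genes differed.

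**Figure D3:**
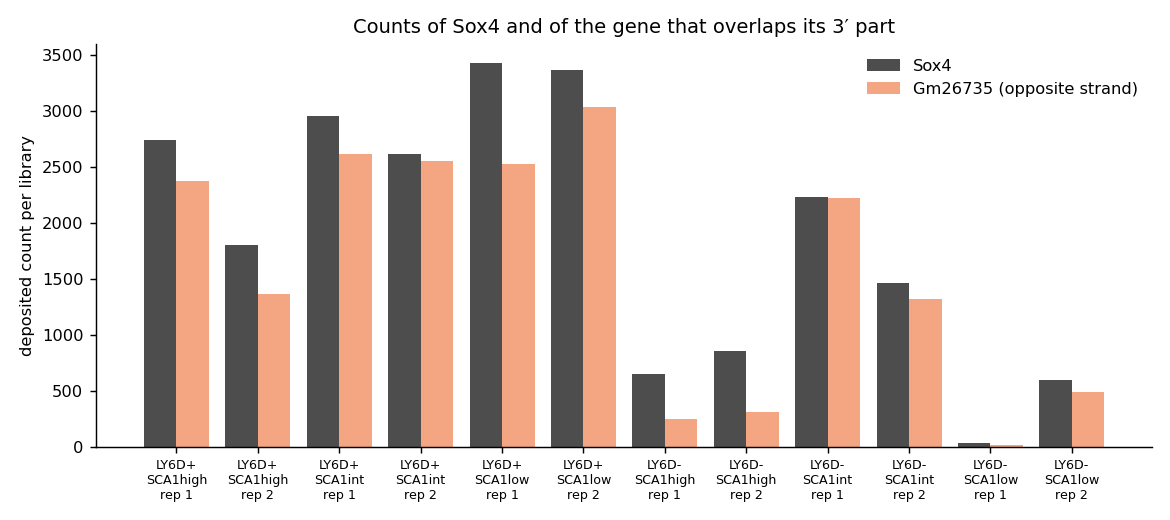
Deposited counts on the vertical axis of Sox4 (dark bars) and of the overlapping gene Gm26735 (light bars) in each of the 12 libraries on the horizontal axis. The light bar is below the dark bar in 12 of 12 libraries and nearest to it in LY6D- SCA1int replicate 1, at 99.3%.

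Bmi1 (ENSMUSG00000026739, chromosome 2, 18677018 to 18686629, plus strand) had 1 to 604 counts. It had 24.5 and 42.2 CPM in LY6D+ SCA1high, 1.13 and 3.18 CPM in LY6D+ SCA1int, and 0.0766 and 0.856 CPM in LY6D+ SCA1low. In LY6D- cells it had 10.2 and 3.05 CPM at SCA1high, 0.0515 and 0.601 CPM at SCA1int, and 65.0 and 8.57 CPM at SCA1low. As for Cd44, the LY6D+ libraries stepped down from SCA1high to SCA1low without overlap, while in LY6D- cells the lowest gate was SCA1int and the highest single value was at SCA1low. Both LY6D+ libraries lay above both LY6D- libraries at SCA1high and SCA1int and below both at SCA1low. The difference between LY6D+ and LY6D- at SCA1low was -6.28 ± 2.78 (SE) on the log2 scale, with an unadjusted p of 0.0318 and an adjusted p of 0.408 by edgeR. Within LY6D+ cells SCA1high differed from SCA1low by 6.14 ± 2.76 (SE), with an unadjusted p of 0.0345 and an adjusted p of 0.578.

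The gene Gm5946 is 97.0% identical to a Bmi1 transcript over 2658 bases, and it had 17 counts in all against 1910 for Bmi1. The Cdkn2a and Cdkn2b genes, both at the locus that BMI1 is known to silence, had too few counts to be tested. Each was at 0 in 10 of 12 libraries. Cdkn2a had 61 counts in LY6D+ SCA1low replicate 1 and 1 count in LY6D- SCA1int replicate 1. Cdkn2b had 256 counts in LY6D- SCA1int replicate 1 and 1 count in LY6D- SCA1low replicate 1. LY6D+ SCA1low replicate 1 and LY6D- SCA1int replicate 1 were also the libraries with the lowest Bmi1, 1 count each. Replicate 2 of these populations had 11 and 7 counts of Bmi1 and 0 counts of Cdkn2a and Cdkn2b. LY6D- SCA1low replicate 1, with 1 count of Cdkn2b, had the most Bmi1, at 604 counts. This is a description of single libraries, picked after the counts were seen.

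Along SCA1, averaged over LY6D, 0 of the 7 genes were called by edgeR, against a background of 1.21%, and 0 had an unadjusted p below 0.05, against 12.1%. DESeq2 also called 0 of the 7, where it called 9.87% of its tested genes. The log2 differences between SCA1high and SCA1low were 1.89 ± 1.44 (SE) for Cd44 and 1.83 ± 1.61 for Bmi1, and between -0.67 for Prom1 and 0.06 for Epcam for the other 5 genes. The median over the 7 genes was 0.00, beside 0.15 over all tested genes, a value that was -0.12 with RLE factors and 0.63 with library size alone, so small differences along SCA1 have no fixed sign. Epcam and Sox4 changed sign with RLE, and Cd24a and Sox9 with library size alone. For LY6D+ against LY6D-, 2 of the 7 genes (Sox9 and Sox4) had a positive difference, and the median was -0.41 beside 0.03 over all tested genes. No gene of the 7 had ranges that did not overlap between all LY6D+ and all LY6D- libraries (background 1.38%) or between all SCA1high and all SCA1low libraries (background 5.01%).

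Whether the SCA1 difference itself depended on LY6D was tested by the interaction term, the SCA1high minus SCA1low difference in LY6D+ cells less that in LY6D- cells. It was 8.60 ± 3.57 (SE) for Bmi1, 6.29 ± 3.03 for Cd44 and 2.04 ± 0.91 for Sox9 on the log2 scale, with unadjusted p-values of 0.0229, 0.0473 and 0.0326. All 3 had an adjusted p of 0.65 by edgeR, and 0 of 7 genes were called, against a background of 0.0393%. The other 4 terms ran from -1.29 for Sox4 to 1.44 for Prom1. DESeq2 called the Bmi1 term, at 9.09 with an adjusted p of 0.00475, in a comparison where it called 3.49% of its tested genes. Unadjusted p-values below 0.05 were found for 7.6% of all tested genes in this comparison. In the 5 comparisons within a single LY6D state or SCA1 gate, 0 of 7 genes were called by edgeR. The background there was 0.262% at SCA1high, 0.203% at SCA1int, 0.472% at SCA1low, 0.327% along SCA1 in LY6D+ cells and 0.635% along SCA1 in LY6D- cells. DESeq2 called 5 values in these comparisons: Bmi1, Cd44 and Sox4 between the LY6D states at SCA1low, and Bmi1 and Cd44 along SCA1 in LY6D+ cells. Of all the genes it tested, DESeq2 called 8.21% at SCA1high, 3.94% at SCA1int, 12.6% at SCA1low, 7.79% along SCA1 in LY6D+ cells and 4.34% along SCA1 in LY6D- cells. Over the 8 comparisons, 12 of 56 tests had an unadjusted p below 0.05 by edgeR, where 10.7% of the tests of all genes did, and 1 passed after adjustment. Those 12 were all of Sox4, Sox9, Bmi1 and Cd44. The 8 comparisons reuse the same libraries, so the 12 are not separate results. Whether they exceed the share over all genes was not tested.

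**Figure D4:**
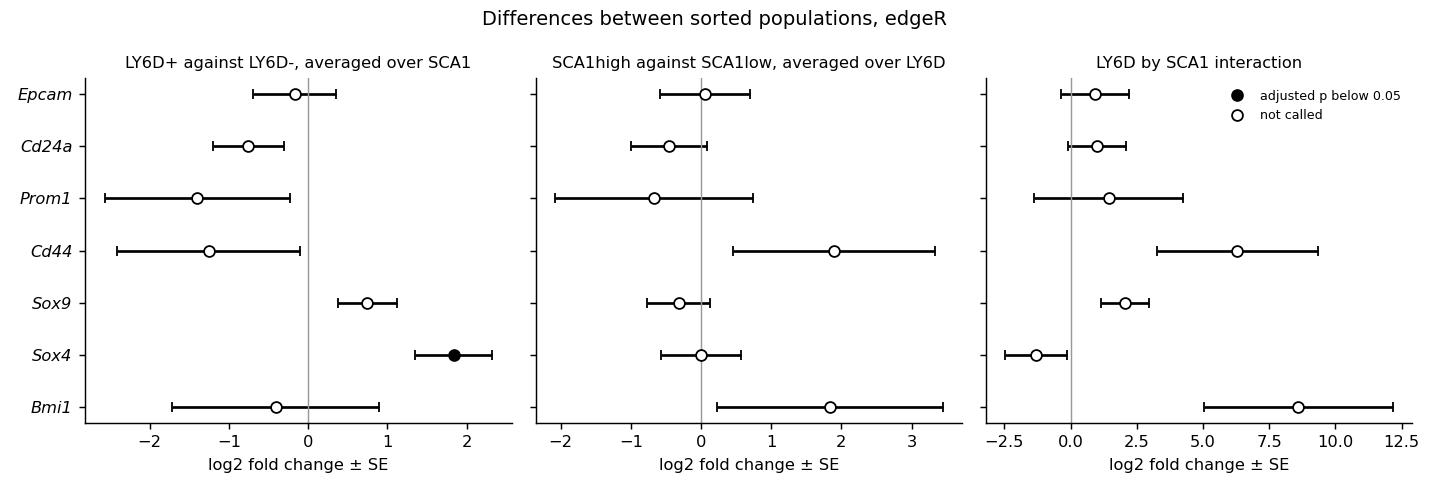
Log2 fold change with its SE on the horizontal axis of each of the 7 genes in the averaged LY6D comparison, the averaged SCA1 comparison and their interaction, filled where the adjusted p was below 0.05. The 1 filled point is Sox4 at 1.83, and the bars of Bmi1, Cd44 and Prom1 are the widest.

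The spread between replicate libraries differed between genes, and its part in which genes were called was not tested. The biological coefficient of variation of the fit was 1.28 over all genes. It was 0.582 for Sox9, 0.645 for Cd24a, 0.667 for Sox4 and 0.718 for Epcam, all within the lowest 9.80% of tested genes. For Cd44 it was 1.22, for Prom1 1.23 and for Bmi1 1.303, which correspond to the 35.8, 36.7 and 42.2 percentiles. Those 4 less variable genes were also the ones with the most counts. LY6D- SCA1low replicate 1 held the highest value of Cd24a, Cd44 and Bmi1 and the lowest of Sox4. Without it the log2 difference between SCA1high and SCA1low in LY6D- cells changed sign for Sox4, from 0.65 to -0.42, and for Cd44, from -1.25 to 1.46, with neither value called.

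**Figure D5:**
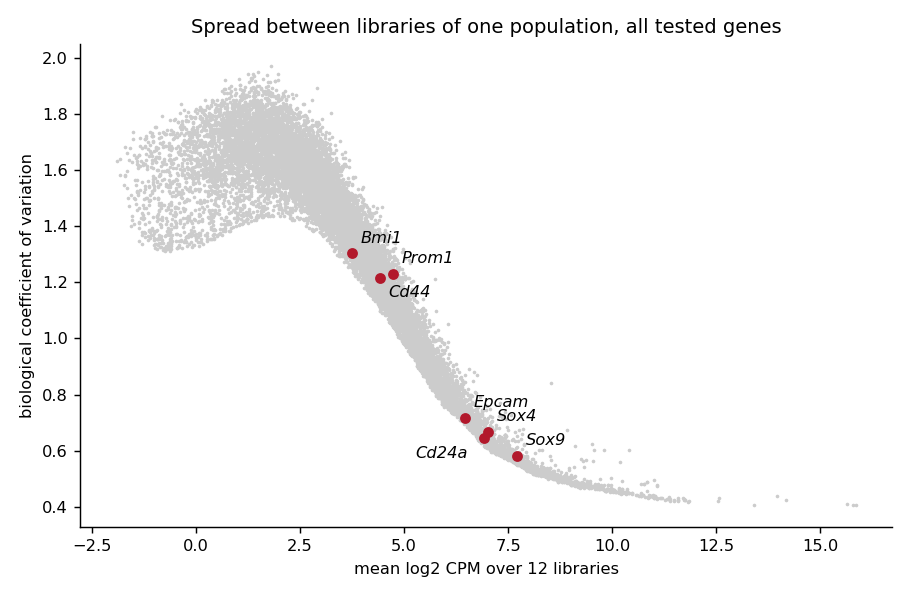
Biological coefficient of variation on the vertical axis against mean log2 CPM over 12 libraries on the horizontal axis for all 15270 tested genes (grey points), with the 7 genes in red. Sox9, Cd24a, Sox4 and Epcam lie between 0.582 and 0.718, and Cd44, Prom1 and Bmi1 between 1.22 and 1.303.

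Among the 7 genes, the log2 CPM of Cd44 and Bmi1 were most alike over the 12 libraries (Pearson r = 0.733), and those of Cd24a and Sox4 the most opposed (r = -0.801). The latter value draws on LY6D- SCA1low replicate 1, where the extreme of each was found. Cd44 and Bmi1 also both had their highest value in that library, and both had their lowest in LY6D- SCA1int replicate 1. The correlations of Sox4 with other genes include its lowest value, 3.87 CPM in LY6D- SCA1low replicate 1. How far single libraries set these correlations was not tested. Over 2397 well-counted genes, Sox4 was most like Pdgfa (r = 0.978), which encodes a platelet-derived growth factor chain, Cep170b (0.973) and Errfi1 (0.949), an inhibitor of the EGF receptor. Epcam was most like Krt19 (0.852), a simple epithelial keratin, Nectin2 (0.80) and Smim4 (0.793). The genes most like Sox9 were Rps2 (0.845), Sdc4 (0.841) and Klf6 (0.836), and those most like Prom1 were Srp14 (0.885), Supt6 (0.853) and Sf3b2 (0.85). Cd24a was most like Creg1 (0.799), Cdk16 (0.771) and Lman1 (0.767). Cd44 was most like Clcn4 (0.735), Anapc5 (0.722) and Zfp771 (0.721), and Bmi1 like Serpinb6a (0.774), Tbrg1 (0.754) and Arl5a (0.724). All these correlations share the same 12 libraries and their depths and are given as descriptions.

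Genes that work with the 7, or mark similar cells, were read from the same fits. Their counts stand beside 1.27% of all tested genes called higher and 1.21% called lower with LY6D. Along SCA1, 1.21% of all tested genes were called and 12.1% had an unadjusted p below 0.05. Of 17 tested surface markers used to enrich epithelial stem or progenitor cells, 1 rose and 1 fell in LY6D+ against LY6D- cells, with a median of -0.23 beside 0.03 for all genes. Itga6, the integrin subunit of hemidesmosomes that is often sorted together with EPCAM, was higher by 1.23 ± 0.32 (SE, adjusted p = 0.0306 by edgeR). Procr, the endothelial protein C receptor, fell by 4.13 on the log2 scale (adjusted p = 0.0275). It averaged 3.07 CPM in LY6D+ and 69.5 CPM in LY6D- libraries. The 11 endothelial markers summed to 2801 to 3241 CPM in LY6D- SCA1high against 13.4 to 264 CPM in LY6D+ libraries, and their part in the Procr difference was not tested.

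Of 19 tested partners and proteases of EPCAM, 2 rose and 0 fell with LY6D (2.48% of all genes called), with a median of -0.40. They were the tight junction genes Cldn4, at 1.0 ± 0.20 (SE, adjusted p = 0.00378 by edgeR), and Cldn1, at 3.05 ± 0.78 (adjusted p = 0.0305). Of 16 tested genes of the hyaluronan and CD44 pathway, 0 rose and 1 fell with LY6D, with a median of -0.66. That gene was Srgn, which encodes the proteoglycan serglycin, at -5.22 ± 1.27 (SE, adjusted p = 0.0206). Serglycin is made by blood and endothelial cells, and the endothelial sums are those given for Procr. The 10 leukocyte markers summed to 12.3 to 15.8 CPM in LY6D- SCA1high, 64.7 to 78.0 CPM in LY6D- SCA1int and 20.2 to 89.7 CPM in LY6D- SCA1low, against 14.3 to 217 CPM in LY6D+ libraries. Csf1r was counted in all 12 libraries, at 3.65 to 53.8 CPM, and Cd52 reached 204 CPM, while Ptprc was at 0 in 8 libraries, Tyrobp, Fcer1g and Coro1a in 11 each and Cd3e in 12. Their part in the Srgn difference was not tested. The most abundant of the list, Ezr, which links CD44 to the cytoskeleton, differed by -0.00 ± 0.29 (SE) and was not called. Along SCA1, 0 of the 16 were called by edgeR (1.21% of all genes) and 5 had an unadjusted p below 0.05 (12.1% of all genes), and the median was 1.21 beside 0.15 for all genes.

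Of 10 tested SOX genes other than Sox9 and Sox4, 1 rose and 0 fell with LY6D, with a median of -0.27. Sox6 rose by 4.98 ± 1.22 (SE, adjusted p = 0.0219 by edgeR), with a mean of 16.9 CPM in LY6D- and 54.7 CPM in LY6D+ libraries. The fitted difference averages the logs of the 3 SCA1 gates, so it need not equal the ratio of such means. Sox15 averaged 20.5 and 21.8 CPM in LY6D+ and LY6D- libraries, with a difference of -0.24 ± 1.09 (SE). Along SCA1, 0 of the 10 were called by edgeR (1.21% of all genes) and 3 had an unadjusted p below 0.05 (12.1% of all genes). Of 28 tested polycomb genes, 1 rose and 1 fell with LY6D, with a median of 0.03, the same as over all genes. Cbx6, a chromodomain subunit of the BMI1 family of complexes, rose by 1.11 ± 0.30 (SE, adjusted p = 0.0444 by edgeR). L3mbtl2, a subunit of a variant complex, averaged 0.0563 CPM in LY6D+ and 12.8 CPM in LY6D- libraries (adjusted p = 0.0448), too little in LY6D+ cells for a fold. Along SCA1, 0 of the 28 were called by edgeR (1.21% of all genes) and 1 had an unadjusted p below 0.05 (12.1% of all genes).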

How the data were processed

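RNA of 12 libraries, 2 for each of 6 sorted populations, was sequenced as 3′ tags. The authors deposited raw counts per Ensembl gene, as whole numbers, and a table of normalised values (a signal equal to the deposited counts divided by 1 constant per library). FeatureCounts, Subread, edgeR, STAR 2.5.1, Picard 1.96, cutadapt 1.9.1 and SAMtools 1.3.1 were used with mm10, per the submitters' processing notes; how they were set, and whether counting used strand, is not given in the sources used here. Symbols and coordinates came from the GENCODE annotation of GRCm38, which matched 48349 of 48795 identifiers; the other 446 rows held 0.476% of counts and stayed in the fit.

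All 12 libraries were fitted together with edgeR 4.0.16 in R 4.3.3 (TMM scaling, filterByExpr, 1 mean per population, 6 residual degrees of freedom, quasi-likelihood test). P-values were adjusted by Benjamini-Hochberg over 15270 genes in each of 8 comparisons, with calls below 0.05. The SE given for edgeR was worked back from the test, as the absolute log2 fold change over the square root of its F statistic. Averaged comparisons are means of log2 values over gates. Likeness used log2 CPM with a prior count of 2 over named genes averaging 5 or more on that scale, leaving out the 7 genes and Gm or Rik names, and the 3 most alike were named. From each of 6 related lists, genes called in an averaged comparison were named, at most 4 by smallest p and filled to 2 by abundance. Copies were searched at 90% identity over 200 bases. Alternatives used RLE and library-size scaling, no filter, DESeq2 1.42.0, limma 3.58.1 on log2 of the deposited values plus 1, and fits without single libraries. The fit was tested on simulated data. At the fitted spread, only the share of false calls was limited. Finding changed genes was required only at a much smaller spread, so this does not show what could be detected here. The 7 genes, the lists and the tests were chosen with earlier results of these data known. Some results on these lists are not reported here.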

Additional observations from a re-analysis of the deposited data

How the results depend on the processing

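Over 41 results on the 7 genes and 862 alternative values, 790 kept their direction and side of the threshold, 10 lost the call, 12 gained one and 50 changed sign; 24 results changed sign under none. None of the sign changes involved a called value. The number of the 7 genes called for LY6D was 1 as reported and 0 with RLE factors, library size as the only scaling, limma-trend or no interaction term, and 0 to 1 without single libraries; for SCA1 it was 0 throughout. The cause of these changes was not tested. All 10 lost calls were of Sox4 for LY6D, and among them was the fit with the Gm26735 counts taken off.

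For SCA1high against SCA1low averaged over LY6D, Epcam (0.06) gave -0.23 with RLE and with DESeq2, -0.12 with no filter, -0.05 with limma-trend and -0.77 without LY6D- SCA1low replicate 2 and LY6D+ SCA1high replicate 2, a pair that an earlier account of these data doubted. Sox4 (0.00) gave -0.22 with RLE and with DESeq2, -0.11 with no filter, -0.022 without ribosomal RNA features and -0.16 without the interaction term. Cd24a gave 0.059 and Sox9 0.17 with library size alone, Prom1 0.75 without that pair, and Bmi1 -0.60 without the interaction term. For LY6D, Cd44 gave 0.042 with limma-trend and Bmi1 0.91 without the interaction term. For LY6D at SCA1int, Cd44 (-0.13) gave 0.018 with no filter, 0.021 with the 4 libraries alone and 1.45 with limma-trend.

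Leaving out 1 library at a time, results that changed sign ranged for LY6D from -0.57 to 0.22 (Epcam), -1.60 to 0.62 (Cd44) and -1.23 to 0.37 (Bmi1), and for SCA1 from -0.61 to 0.58 (Epcam), -0.94 to 0.032 (Cd24a), -6.08 to 1.77 (Prom1) and -0.55 to 1.31 (Sox4). The interaction ranged from -0.35 to 1.51 (Epcam), -0.074 to 1.58 (Cd24a) and -9.42 to 6.24 (Prom1). Within populations the ranges were -0.42 to 3.45 (Sox4) and -3.80 to 1.46 (Cd44) along SCA1 in LY6D-, -0.17 to 1.11 (Sox9) along SCA1 in LY6D+, -0.68 to 0.043 (Sox9) for LY6D at SCA1low and -1.08 to 5.65 (Cd44) for LY6D at SCA1int. Sox4 at SCA1low (3.24) was called by DESeq2 (adjusted p = 0.0165) and without any of LY6D+ SCA1high replicate 2, either LY6D+ SCA1int library, LY6D- SCA1high replicate 2 or LY6D- SCA1low replicate 2, at 3.25 to 6.08, and without the pair at 6.09.

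Genes called over the whole table numbered 379 for LY6D and 185 for SCA1, against 2208 and 1303 with DESeq2, 218 and 121 with limma-trend, and 145 and 127 without the interaction term. Without LY6D+ SCA1int replicate 1 the SCA1 count was 304 and without LY6D+ SCA1int replicate 2 it was 296. The LY6D calls split 194 higher and 185 lower, and 106 and 190 with RLE. The SCA1 calls split 66 and 119, 35 and 157 with RLE, and 184 and 77 with library size alone. RLE moved the median of all genes by -0.12 for LY6D and -0.27 for SCA1, and library size alone by 0.48 for SCA1. Deviations of same-numbered libraries correlated at -0.28 to 0.209, not all above 0.1, so the fit reported has no pairing. The deposited labels give all libraries of a replicate number the same code, whose meaning is not explained. The lowest value, -0.28, was between LY6D- SCA1high and LY6D- SCA1low. The 3 pairs of LY6D+ populations were all positive, at 0.086 to 0.209. With the replicate block, Sox4 for LY6D was 1.89 ± 0.48 (adjusted p = 0.0207 by edgeR) and 423 and 245 genes were called, and no library was most like its own replicate. The lowest libraries of Prom1, Bmi1 and Cd44 had 0, 1 and 8 counts. The count of 0 was in the smallest library, LY6D+ SCA1high replicate 2, with 8436185 counts in all. The 8 counts of Cd44 and a count of 1 of Bmi1 were in LY6D- SCA1int replicate 1, with 19842647 counts in all. Replicate 2 of that population, with 11465798 counts in all, had 498 counts of Cd44. The part of depth in these low counts was not tested. The limit given for the count of 0 covers counting error only.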

Other observations

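Libraries of the 2 LY6D- populations at SCA1high and SCA1low were alike across their numbers. LY6D- SCA1high replicate 1 was most like LY6D- SCA1low replicate 2 (r = 0.75 of log2 CPM over tested genes), and LY6D- SCA1high replicate 2 was most like LY6D- SCA1low replicate 1 (r = 0.682). All 6 LY6D+ and both LY6D- SCA1int libraries were most like an LY6D+ library of their own replicate number. Of the 7 genes, Epcam, Cd44 and Bmi1 were higher in LY6D- SCA1high replicate 1 than in replicate 2, and all 3 were higher in LY6D- SCA1low replicate 1 than in its replicate 2. Prom1 was higher in replicate 2 of both populations, at 34.5 and 114 CPM. The other 3 genes went across the numbers: Cd24a and Sox9 were higher in replicate 2 at SCA1high and in replicate 1 at SCA1low, and Sox4 was higher in replicate 1 at SCA1high and in replicate 2 at SCA1low.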
